A study of Mus musculus with 8 samples.

Results

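Interferon-stimulated genes were followed in mouse bone marrow cells cultured with M-CSF, with or without RANKL. The set holds 38 listed gene symbols, chosen by name from the known response to type I interferon, among 19505 genes with a single symbol on the array. A transcript cluster, the array's unit for a gene, was found for 37 of them, and the cluster with the highest mean was used where a gene had several. Ifi44 was not matched to a cluster and was not analysed here. The cells came from strain C57BL6/J, whose age is not in the labels. They were grown with 50 ng/ml M-CSF, the growth factor of the macrophage lineage, in every culture. The 4 cultures were M-CSF alone, M-CSF with 100 ng/ml RANKL (M-CSF+RANKL), and M-CSF with RANKL plus a retrovirus for wild-type PSS1 (PSS1-WT) or for mutant PSS1 (PSS1-LMS), added 1 day after the factors. RANKL drives osteoclast formation from these precursors, and PSS1, the product of Ptdss1, is a phosphatidylserine synthase. Each culture was measured on days 3 and 6 with 1 Affymetrix array, so there were 8 arrays and 1 array per group. The labels give neither the mutation behind LMS, nor the species of the PSS1 insert, nor whether the first 2 cultures received an empty virus. The 3 cultures with RANKL are called the RANKL cultures here, and their values are always given in the order M-CSF+RANKL, PSS1-WT, PSS1-LMS.

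Type I interferons bind a receptor made of Ifnar1 and Ifnar2, and the kinases Jak1 and Tyk2 then activate STAT proteins. Stat2 joins Irf9 in a complex, ISGF3, that binds the interferon-stimulated response element (ISRE) in the promoters of responsive genes. The induced proteins sense foreign RNA and DNA, block viral replication, and include Stat2, Irf9 and Irf7 themselves, so that the response feeds its own signalling chain. Macrophages are known to keep a low level of this response without infection, and interferon-beta is known as an inhibitor of osteoclast formation that acts by lowering the Fos protein.

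The promoters show the element through which the set is known to be regulated. RefSeq promoters of build GRCm38.p6, from 250 bases before to 50 bases after a start, were at hand for 29 of the 38 genes. Each was searched on both strands for the core of the ISRE, GAAANNGAAA, where N is any base and matches may overlap. It was present in 11 of these 29 genes, or 37.9%, against 3.99% of all 27025 genes with such a promoter. The other interferon motif searched, the gamma-activated site TTCNNNGAA, was present in 8 of the 29 (27.6%) against 9.55% of all genes. Upstream windows around the cores of 6 members are printed 5′ to 3′ in the direction of the gene, because these members recur in the results, with each core in capitals. A core on the opposite strand reads TTTCNNTTTC.
Isg15, chr4:156200865-156200906, minus strand: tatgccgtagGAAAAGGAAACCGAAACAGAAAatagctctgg
Bst2, chr8:71537577-71537612, minus strand: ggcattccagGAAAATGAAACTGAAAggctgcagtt
Oas1a, chr5:120907526-120907555, minus strand: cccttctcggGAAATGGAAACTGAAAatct
Oas3, chr5:120777715-120777744, minus strand: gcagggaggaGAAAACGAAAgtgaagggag
Ifit1, chr19:34640775-34640823, plus strand: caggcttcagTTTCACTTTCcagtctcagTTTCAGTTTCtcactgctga
Stat2, chr10:128270266-128270295, plus strand: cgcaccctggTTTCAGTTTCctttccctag
Isg15 had 3 overlapping cores, the first 78 bases before the start. Bst2, Oas1a and Ifit1 had 2 each, and in Bst2 and Ifit1 they began 130 and 104 bases before the start. The single cores of Oas3 and Stat2 began 75 and 222 bases before it. Sp100 and Oasl2, which held the widest differences below, and Irf9 and Irf7 had no match to these letters in their window.

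Signals are log2 values as deposited, so a difference of 1 is a factor of 2, and levels of different genes are not compared because each has its own probes. The brightest of 23 background probe sets set the background of each array, and it lay between 5.54 and 7.13. It was highest on the M-CSF array of day 6, where the next background set read only 5.56. The label of the PSS1 cultures was borne out by Ptdss1, which read 18.91 and 18.79 on day 3 and 18.06 and 17.50 on day 6 in PSS1-WT and PSS1-LMS, against 9.56 to 10.36 on the other 4 arrays. Of the markers listed for other cell types, all 6 T and NK cell, all 4 B cell, both erythroid and all 4 stromal genes with a cluster stayed within background on every array. The mean signal of 8 macrophage markers was 13.31 on day 3 and 14.95 on day 6 with M-CSF, and 7.53 to 8.51 in the RANKL cultures. That of 8 osteoclast markers was 4.56 and 6.42 with M-CSF and 17.04 to 17.37 with RANKL. Of 6 plasmacytoid dendritic cell markers, 5 were within background on every array, Siglech among them. The exception was Tcf4, which read 12.96 and 15.26 with M-CSF and 9.71 to 10.48 with RANKL. Neutrophil markers averaged 9.96 on day 3 and 5.79 on day 6 with M-CSF. In the RANKL cultures they averaged 9.74, 9.17 and 9.75 on day 3 and 4.87, 4.92 and 5.37 on day 6. Macrophage markers thus averaged higher with M-CSF than with RANKL on both days, and their part in the differences below was not tested. In such mixed cultures, fewer cells of a type and less RNA per cell cannot be told apart.

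Most members were highest in the M-CSF culture of day 6 and lower, with little change over time, in the RANKL cultures. However, 13 of the 37 genes lay within background on all 8 arrays, and 8 more were above it on M-CSF arrays alone. For these a flat RANKL signal cannot be told from the floor of the array. The M-CSF array of day 6 was the highest of the 8 arrays for 34 of the 37 genes, all but Oasl1, Psmb8 and Psmb9. Among all 10871 genes tested that array was the highest for 25%, and among the 34 members tested for 32. On day 6 all 3 RANKL arrays lay below M-CSF for 34 of the 34 members tested, where 38.9% of all genes did so. On day 3 they did so for 26 of the 34, against 39.4% of all genes. For 14 of the 34 this direction was favoured by the filter on low values described next, and among the other 20 the M-CSF array of day 6 was the highest for 18 and the RANKL arrays lay below M-CSF for 20 on day 6 and 14 on day 3. On day 3 the RANKL arrays of Psmb8 all lay above M-CSF, and those of Ifit3, Mx1, Mx2, Trim25, Samhd1, Lgals3bp and Psmb9 overlapped with it. The map of signals by array shows the same layout, with the M-CSF column of day 6 standing out in most rows.

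**Figure D1:**
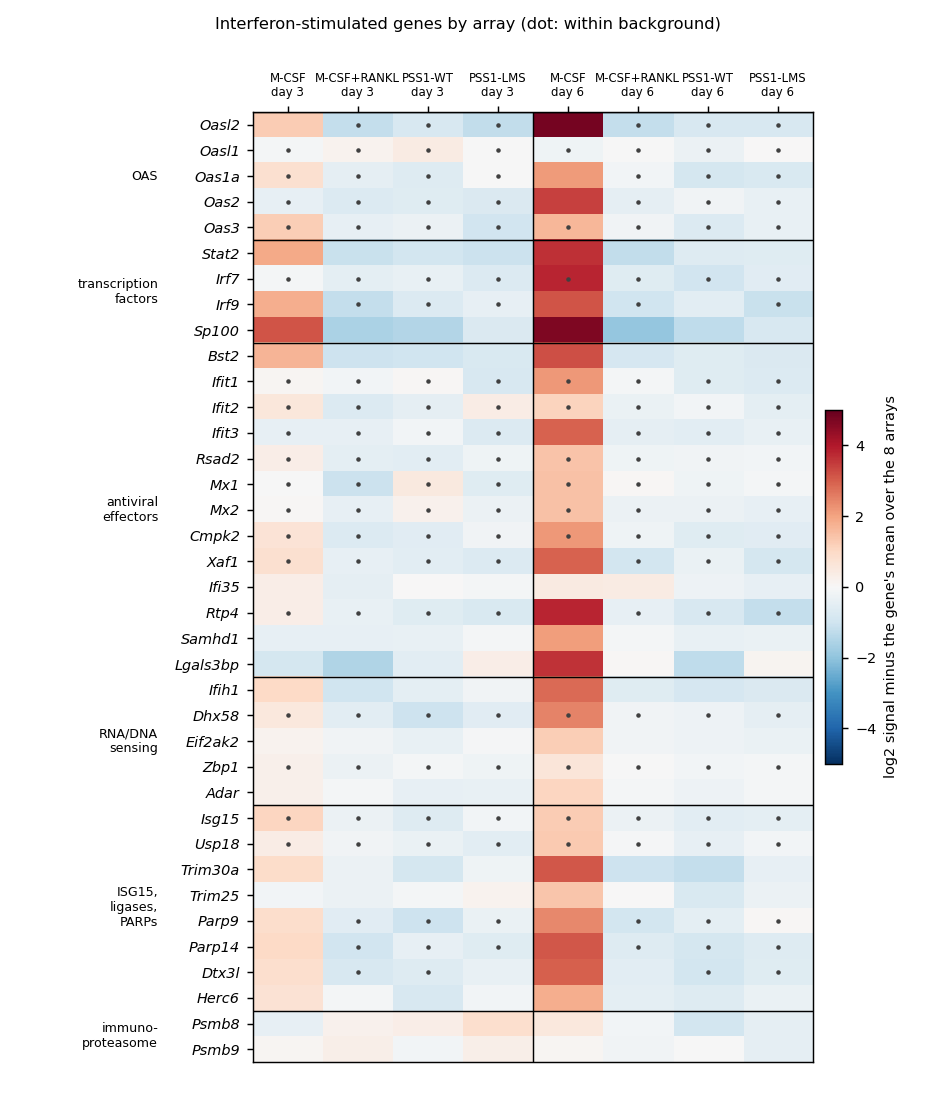
Log2 signal of the 37 genes with a transcript cluster (rows, by role) on each of the 8 arrays (columns), coloured as the difference from the gene's own mean over the arrays. A dot marks a value within the background of its array. The M-CSF column of day 6 is the highest in 34 rows, and 13 rows carry a dot in all 8 columns.

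A gene entered the tests if any of its 8 values reached 4.86, the median of the table, which kept 34 members and left out Oasl1, Rsad2 and Zbp1. Of these 34, 14 passed through M-CSF arrays alone. They were Oasl2, Oas2, Oas3, Irf7, Dhx58, Isg15, Ifit1, Ifit2, Mx1, Mx2, Usp18, Cmpk2, Xaf1 and Rtp4. A difference in the tested direction was built into the selection of these 14. Counts over the 34 and by role therefore describe the set and support nothing by themselves. The 20 members that passed through a RANKL array too are given beside the counts over the 34. Counts by role stand against 20.2% of all genes called lower on day 3 and 21.6% on day 6. Limma fits over all 10871 genes tested 3 forms of the RANKL comparison, which share arrays and are not independent. Adjusted p-values follow Benjamini and Hochberg over all these genes, a call needs one under 0.05, and errors are standard errors (SE) of the fit.

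M-CSF+RANKL minus M-CSF, averaged over both days, was called lower for 18 of the 34 members and higher for 0. Among all genes 12.4% were called lower and 14.1% higher, and 25 members were lower at an unadjusted p under 0.05. The median difference of the 34 was -1.80, against 0.03 over all genes tested. Of the 20 members that also passed through a RANKL array, 11 were called lower. This count moved with single arrays. It was 32 without the M-CSF array of day 3, 6 with the day 3 array of M-CSF+RANKL left out and 4 with its day 6 array left out. Bst2, Irf9, Sp100 and Stat2 were called in each of the last 2 settings. With every value under 7.13, the brightest background set of any array, raised to it, Bst2 and Sp100 were the 2 members called.

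When the 3 RANKL arrays of a day were set against its M-CSF array, 18 of 34 members were lower on day 3 and 32 on day 6. None was higher on either day, where 1 and 0 were higher at an unadjusted p under 0.05. In this fit the lone M-CSF array of a day is assumed to vary as the RANKL arrays do. Among all genes 20.2% were called lower and 22.3% higher on day 3, and 21.6% lower and 22% higher on day 6. Median differences were -0.98 on day 3 and -2.75 on day 6 for the members tested, against 0.02 and 0.01 over all genes. With the M-CSF+RANKL array alone the day 6 median was -2.51. All 18 members lower on day 3 were also lower on day 6. Of the 20 members that passed through a RANKL array too, 11 were lower on day 3 and 18 on day 6. Raising values to 7.13 left 7 members called on day 3 and 21 on day 6.

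For most members the gap between cultures was wider on day 6. Its change from day 3 to day 6, tested as an interaction, was called negative for 22 of 34 members and positive for 0, against 11.3% and 8.49% of all genes. The median change was -1.56, against -0.03 over all genes. Of the 20 members that passed through a RANKL array too, 13 were called. The M-CSF culture held most of this change. Its signal of day 6 was above background and at least 2-fold over that of day 3, or over the day 3 background where that was higher, for 18 of 34 members and 11.8% of all genes, with 1 array each. Of the 20 members that passed through a RANKL array too, 15 met this. The median day change of the members with M-CSF was 1.52 and ran from 0.02 for Psmb9 to 4.46 for Lgals3bp, against 0.002 over all genes. The median day change of the same members in the RANKL cultures was -0.07. It includes members within background on every RANKL array, where a flat signal cannot be told from the floor.

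**Figure D2:**
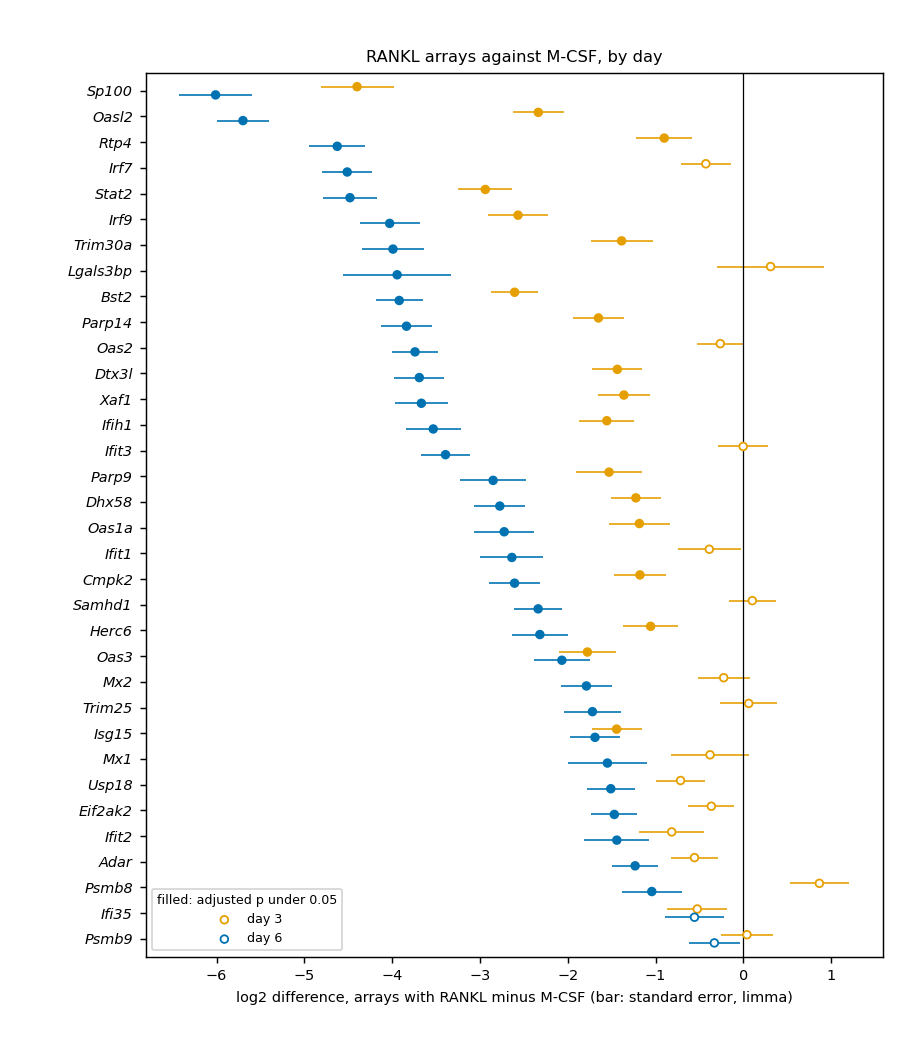
Log2 difference of the 3 RANKL arrays from the M-CSF array (horizontal axis, bars: standard error from limma) for the 34 members tested, on day 3 (orange) and day 6 (blue). Filled points passed an adjusted p of 0.05: 18 members on day 3 and 32 on day 6, with Sp100 at -4.40 and -6.01 at the top and Psmb9 unfilled at the bottom.

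The transcription factors of the response had the lowest median of the 6 roles on day 6, -4.50 over 4 tested genes. Stat2, Irf9 and Sp100 were lower with RANKL on both days, and Irf7, which passed the filter through M-CSF arrays alone, on day 6. Stat2, which gives ISGF3 its activating domain, read 9.06 on day 3 and 10.80 on day 6 with M-CSF, against 6.05, 6.24 and 6.07 on day 3 and 5.90, 6.51 and 6.55 on day 6 with RANKL. Its RANKL arrays lay together on both days, far under M-CSF. The difference was -2.94 ± 0.31, adjusted p = 5.48e-06 on day 3 and -4.48 ± 0.31, adjusted p = 9.19e-08 on day 6, or 7.67-fold and 22.3-fold lower. Irf9, the DNA-binding part of the complex, read 8.02 with M-CSF and 5.02, 5.54 and 5.81 in the RANKL cultures on day 3, and 9.36 and 5.22, 5.68 and 5.10 on day 6. Its values in the RANKL cultures lay at or near background on both days, so that it was at least 4.21-fold lower on day 3 and at least 11.3-fold lower on day 6. Averaged over both days, M-CSF+RANKL minus M-CSF was -3.95 ± 0.45, adjusted p = 0.00058 for Stat2 and -3.57 ± 0.46, adjusted p = 0.00105 for Irf9.

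Irf7, the factor that amplifies the interferon genes, differed in time from the other transcription factors. Oas2, Ifit3, Samhd1 and other members below were likewise called on day 6 and not on day 3. It read 3.07 on day 3 and 6.97 on day 6 with M-CSF, against 2.68, 2.80 and 2.47 on day 3 and 2.58, 2.20 and 2.59 on day 6 with RANKL. On day 3 all 4 cultures were low, and on day 6 the M-CSF array alone was high. Its M-CSF value of day 6 lay just under the single brightest background set of that array (7.13) and well over the next (5.56), so no fold is given. The difference was -0.43 ± 0.28, adjusted p = 0.254 on day 3 and -4.51 ± 0.28, adjusted p = 4.56e-08 on day 6, and its change between days was -4.09 ± 0.40, adjusted p = 5.66e-05. Sp100, a scaffold protein of nuclear bodies that represses incoming viral genomes, read 12.85 with M-CSF and 8.13, 8.25 and 8.97 in the RANKL cultures on day 3, and 14.37 and 7.77, 8.43 and 8.89 on day 6. It was above background on every array and had the largest difference of the members tested, -4.40 ± 0.42, adjusted p = 2.33e-06 on day 3 and -6.01 ± 0.42, adjusted p = 1.01e-07 on day 6, which are 21.1-fold and 64.6-fold. The change between its days was -1.61 ± 0.59, adjusted p = 0.0722, which did not pass.

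**Figure D3:**
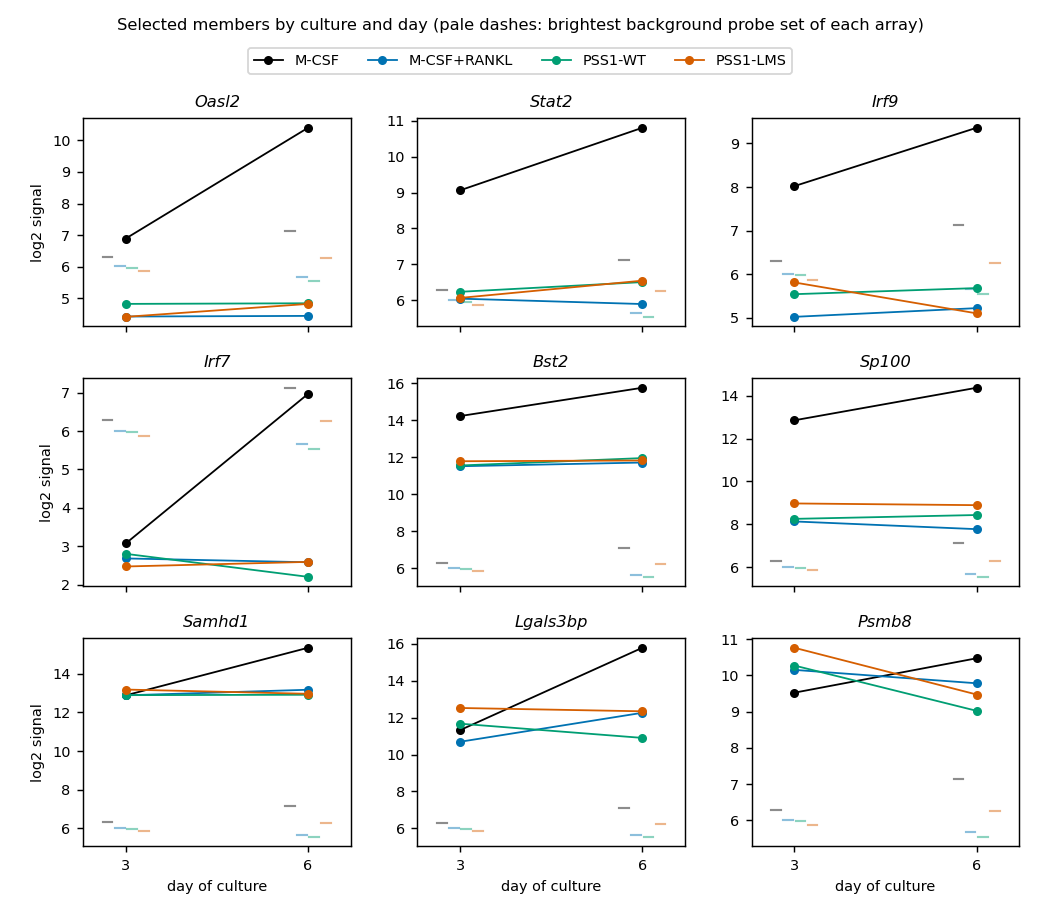
Log2 signal (vertical axes, own scale per gene) of 9 members on days 3 and 6 (horizontal axes) in the 4 cultures, 1 array per point; pale dashes mark each array's brightest background set. M-CSF lies apart from the RANKL cultures on both days for Stat2, Irf9, Bst2 and Sp100 and on day 6 alone for Irf7, Samhd1 and Lgals3bp, while the cultures cross for Psmb8.

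The OAS family makes a short RNA-like messenger that activates an RNA-cutting enzyme. Of its 5 genes, 4 were tested, with 3 lower on day 3 and 4 lower on day 6. Oasl2, Oas2 and Oas3 passed the filter through M-CSF arrays alone, so this direction was built into their selection. Oas1a passed through a RANKL array too and was lower on both days. Oasl2 read 6.89 on day 3 and 10.40 on day 6 with M-CSF, against 4.42, 4.82 and 4.41 on day 3 and 4.44, 4.84 and 4.82 on day 6 with RANKL. The 6 RANKL arrays all lay within background between 4.41 and 4.84, and both M-CSF arrays lay above it. The difference was -2.34 ± 0.29, adjusted p = 2.8e-05 on day 3 and -5.70 ± 0.29, adjusted p = 7.41e-09 on day 6, at least 1.92-fold and at least 23.8-fold. With M-CSF alone Oasl2 was 11.4-fold higher on day 6 than on day 3. Oas1a read 5.85 with M-CSF and 4.60, 4.38 and 5.01 in the RANKL cultures on day 3, and 7.16 and 4.89, 4.15 and 4.26 on day 6, and only the M-CSF array of day 6 was above background, at least 2.52-fold over the RANKL cultures (-2.72 ± 0.34, adjusted p = 2.61e-05). The day 6 M-CSF values of Oas1a and Oas2 lay just over the brightest background set of that array (7.13) and well over the next (5.56). Oas2 showed the day pattern of Irf7. It read 3.42 on day 3 and 7.23 on day 6 with M-CSF, against 3.15, 3.22 and 3.11 on day 3 and 3.38, 3.63 and 3.45 on day 6 with RANKL, with a change between days of -3.48 ± 0.37, adjusted p = 9.26e-05. Oas3 read 4.75 with M-CSF and 3.11, 3.24 and 2.56 in the RANKL cultures on day 3, and 5.18 and 3.34, 2.85 and 3.15 on day 6, all within background. Oasl1 read 1.77 to 2.47 over the 8 arrays and showed no separation of the cultures.

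Of 5 sensors and adaptors of foreign RNA and DNA, 4 were tested, with 2 lower on day 3 and 4 on day 6. Dhx58 among them passed the filter through M-CSF arrays alone. Ifih1, which encodes the long double-stranded RNA sensor MDA5, read 8.19 on day 3 and 10.01 on day 6 with M-CSF, against 6.21, 6.71 and 7.0 on day 3 and 6.60, 6.36 and 6.47 on day 6 with RANKL. It was above background on every array and lower with RANKL on both days, -1.56 ± 0.32, adjusted p = 0.00139 on day 3 and -3.53 ± 0.32, adjusted p = 1.07e-06 on day 6, or 2.94-fold and 11.6-fold. Dhx58, its relative LGP2, read 4.97 with M-CSF and 3.92, 3.43 and 3.88 in the RANKL cultures on day 3, and 6.93 and 4.28, 4.18 and 4.0 on day 6 and stayed within background, so no fold is given for a difference of -2.77 ± 0.29, adjusted p = 4.34e-06 on day 6. Eif2ak2, the kinase PKR that halts translation, read 9.08 on day 3 and 10.13 on day 6 with M-CSF, against 8.74, 8.55 and 8.84 on day 3 and 8.73, 8.67 and 8.57 on day 6 with RANKL. Adar, which edits double-stranded RNA and so hides a cell's own RNA from these sensors, read 9.70 with M-CSF and 9.34, 9.01 and 9.08 in the RANKL cultures on day 3, and 10.51 and 9.32, 9.19 and 9.32 on day 6. Both were above background everywhere and showed smaller gaps. The day 6 differences were -1.47 ± 0.26, adjusted p = 0.000504 for Eif2ak2 and -1.23 ± 0.27, adjusted p = 0.00205 for Adar, or 2.77-fold and 2.35-fold, and those of day 3 did not pass (adjusted p = 0.297 and 0.113). Zbp1, a sensor of Z-form nucleic acid, read 3.40 to 4.30 and was below the filter.

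Of 14 antiviral effectors, 12 were tested, with 4 lower on day 3 and 11 on day 6. Ifit1, Ifit2, Mx1, Mx2, Cmpk2, Xaf1 and Rtp4 passed the filter through M-CSF arrays alone. Of the others, Bst2 was lower on day 3, and Bst2, Samhd1, Lgals3bp and Ifit3 on day 6. Bst2, the tether that holds budding virus on the cell surface, read 14.23 on day 3 and 15.76 on day 6 with M-CSF, against 11.52, 11.56 and 11.79 on day 3 and 11.72, 11.96 and 11.83 on day 6 with RANKL. The M-CSF arrays were the highest and the RANKL cultures were level over both days. The difference was -2.61 ± 0.27, adjusted p = 4.77e-06 on day 3 and -3.92 ± 0.27, adjusted p = 8.94e-08 on day 6, or 6.09-fold and 15.1-fold. Samhd1, which depletes nucleotides that viruses need, differed on day 6 alone. It read 12.89 with M-CSF and 12.89, 12.90 and 13.19 in the RANKL cultures on day 3, and 15.36 and 13.18, 12.92 and 12.97 on day 6. The 4 cultures lay together on day 3, and on day 6 M-CSF was 5.05-fold over the others (-2.34 ± 0.27, adjusted p = 1.18e-05); the change between days was -2.44 ± 0.38, adjusted p = 0.0012. Lgals3bp, a secreted glycoprotein that binds galectins, read 11.32 on day 3 and 15.78 on day 6 with M-CSF, against 10.69, 11.67 and 12.52 on day 3 and 12.26, 10.90 and 12.34 on day 6 with RANKL. It had the largest M-CSF day change of the set, 22.03-fold, with overlapping cultures on day 3 and a gap of -3.94 ± 0.61, adjusted p = 0.000156 on day 6. Its RANKL arrays were more spread than those of the other members, from 10.69 to 12.52.

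Rtp4, a chaperone with antiviral action, read 5.34 with M-CSF and 4.64, 4.41 and 4.26 in the RANKL cultures on day 3, and 8.82 and 4.58, 4.19 and 3.82 on day 6, and was at least 7.98-fold lower with RANKL on day 6 (-4.63 ± 0.32, adjusted p = 9.78e-08). Xaf1, a partner of apoptosis regulators, read 5.95 on day 3 and 8.09 on day 6 with M-CSF, against 4.71, 4.60 and 4.46 on day 3 and 4.22, 4.81 and 4.25 on day 6 with RANKL, at least 4.82-fold lower on day 6 (-3.67 ± 0.30, adjusted p = 4.74e-07). In both, the M-CSF array of day 6 was the only one above background, and both passed the filter through M-CSF arrays alone. Ifit3, which forms complexes with Ifit1 and Ifit2 on viral RNA, showed the same order. It read 4.63 with M-CSF and 4.62, 4.91 and 4.35 in the RANKL cultures on day 3, and 7.98 and 4.60, 4.51 and 4.66 on day 6. On day 3 M-CSF lay among the RANKL arrays (difference 0.00 ± 0.28, adjusted p = 0.997), and on day 6 it was at least 4.46-fold above them (-3.39 ± 0.28, adjusted p = 5.93e-07). Ifi35, a small interferon-induced protein, read 7.57 on day 3 and 7.68 on day 6 with M-CSF, against 6.76, 7.24 and 7.14 on day 3 and 7.62, 6.95 and 6.79 on day 6 with RANKL, above background throughout. It passed on neither day, with nearly equal day 6 values in M-CSF and M-CSF+RANKL and an adjusted p of 0.214.

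The remaining effectors stayed within background on all 8 arrays. Ifit1 read 3.77 with M-CSF and 3.54, 3.73 and 2.86 in the RANKL cultures on day 3, and 5.83 and 3.56, 3.05 and 2.97 on day 6. Ifit2 read 4.67 on day 3 and 5.23 on day 6 with M-CSF, against 3.40, 3.66 and 4.49 on day 3 and 3.77, 3.96 and 3.62 on day 6 with RANKL. Cmpk2, a mitochondrial nucleotide kinase whose gene lies on chromosome 12 with Rsad2, read 4.63 with M-CSF and 3.25, 3.36 and 3.75 in the RANKL cultures on day 3, and 6.09 and 3.71, 3.34 and 3.39 on day 6. All 3 were called lower on day 6, -2.64 ± 0.36, adjusted p = 4.91e-05, -1.44 ± 0.37, adjusted p = 0.00646 and -2.61 ± 0.29, adjusted p = 8.95e-06 in that order, and Cmpk2 also on day 3 (-1.18 ± 0.29, adjusted p = 0.00564). Mx1 read 3.78 on day 3 and 5.26 on day 6 with M-CSF, against 2.73, 4.29 and 3.20 on day 3 and 3.87, 3.57 and 3.70 on day 6 with RANKL. Mx2 read 4.62 with M-CSF and 4.15, 4.77 and 4.27 in the RANKL cultures on day 3, and 6.02 and 4.29, 4.26 and 4.16 on day 6. Both encode dynamin-like antiviral GTPases where the genes are intact, and RefSeq lists both as transcribed pseudogenes in GRCm38.p6, the genome of C57BL/6J. Their day 6 differences were -1.55 ± 0.45, adjusted p = 0.013 and -1.79 ± 0.29, adjusted p = 0.000256. Rsad2, or viperin, read 2.36 to 3.22 on 7 arrays and 4.34 with M-CSF on day 6, and was below the filter.

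In total 13 of the 37 genes stayed within background on all 8 arrays: Oasl1, Oas3, Irf7, Dhx58, Isg15, Ifit1, Ifit2, Rsad2, Mx1, Mx2, Usp18, Cmpk2 and Zbp1. A further 8 were above it on M-CSF arrays alone (Oasl2, Oas1a, Oas2, Ifit3, Xaf1, Rtp4, Parp9 and Parp14), and Irf9 and Dtx3l on M-CSF and some RANKL arrays. The other 14 were above it on every array. With the second-brightest background set of each array as the limit, chosen after seeing the data, 8 stayed within it: Oasl1, Oas3, Isg15, Ifit2, Rsad2, Mx1, Usp18 and Zbp1. Of the 13, 10 were tested, and 4 were called lower on day 3 and 10 on day 6. All 10 had passed the filter through M-CSF arrays alone, so nothing is read from these counts, and no fold is drawn from signals dimmer than a background probe set. Of the 14 above background on every array, 6 were lower on day 3 (Stat2, Bst2, Ifih1, Trim30a, Sp100 and Herc6) and 12 on day 6, and the gap of 8 changed between days. Their median difference was -0.54 on day 3 and -2.33 on day 6.

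Isg15 encodes a ubiquitin-like protein that is attached to targets during the response, Herc6 is its main ligase in the mouse, and Usp18 removes it and damps the receptor. Isg15 read 5.12 on day 3 and 5.30 on day 6 with M-CSF, against 3.73, 3.40 and 3.91 on day 3 and 3.76, 3.52 and 3.55 on day 6 with RANKL. All 8 values were within background, and M-CSF was the highest culture on both days, with differences of -1.44 ± 0.28, adjusted p = 0.00112 on day 3 and -1.69 ± 0.28, adjusted p = 0.000304 on day 6. Usp18 read 4.21 with M-CSF and 3.65, 3.51 and 3.31 in the RANKL cultures on day 3, and 5.13 and 3.77, 3.42 and 3.68 on day 6, within background, and was called on day 6 alone (-1.51 ± 0.28, adjusted p = 0.000592). Herc6 read 8.59 on day 3 and 9.69 on day 6 with M-CSF, against 7.76, 7.09 and 7.74 on day 3 and 7.37, 7.21 and 7.54 on day 6 with RANKL. It was above background on every array and 2.08-fold and 4.98-fold lower with RANKL on days 3 and 6 (-1.06 ± 0.32, adjusted p = 0.0162, then -2.32 ± 0.32, adjusted p = 5.1e-05). All 8 genes of this group were tested, with 6 lower on day 3 and 8 on day 6. Isg15 and Usp18 passed the filter through M-CSF arrays alone.

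The ubiquitin ligases differed between themselves. Trim30a, a TRIM protein that restrains Toll-like receptor signalling, read 8.25 with M-CSF and 7.03, 6.46 and 7.12 in the RANKL cultures on day 3, and 10.45 and 6.30, 6.16 and 6.92 on day 6. It was 2.61-fold lower on day 3 and 15.9-fold lower on day 6, with -3.99 ± 0.35, adjusted p = 9.7e-07 on day 6. Trim25, the ligase that activates the sensor RIG-I, read 10.24 on day 3 and 11.76 on day 6 with M-CSF, against 10.10, 10.26 and 10.54 on day 3 and 10.40, 9.63 and 10.08 on day 6 with RANKL. The 4 cultures overlapped on day 3, and on day 6 M-CSF was 3.29-fold higher (-1.72 ± 0.32, adjusted p = 0.000736). Dtx3l and Parp9 encode partners in a ligase complex and overlap on chromosome 16 in the RefSeq annotation. Dtx3l read 7.16 with M-CSF and 5.52, 5.68 and 5.97 in the RANKL cultures on day 3, and 9.33 and 5.78, 5.42 and 5.73 on day 6. Parp9 read 6.46 on day 3 and 7.98 on day 6 with M-CSF, against 4.99, 4.54 and 5.25 on day 3 and 4.66, 5.09 and 5.63 on day 6 with RANKL. The pair lay at or near background in the RANKL cultures and were at least 11.1-fold and at least 4.44-fold lower on day 6 (-3.69 ± 0.29, adjusted p = 2.99e-07 and -2.85 ± 0.37, adjusted p = 3.51e-05). Parp14, an ADP-ribosyltransferase encoded on the same chromosome, read 6.80 with M-CSF and 4.85, 5.39 and 5.20 in the RANKL cultures on day 3, and 8.91 and 5.15, 4.92 and 5.15 on day 6, at least 8.50-fold lower on day 6 (-3.84 ± 0.29, adjusted p = 2.04e-07).

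The immunoproteasome subunits did not share the layout of the other roles. Psmb8 and Psmb9 replace standard proteasome subunits and shape the peptides loaded on MHC class I. Psmb8 read 9.52 on day 3 and 10.47 on day 6 with M-CSF, against 10.15, 10.27 and 10.76 on day 3 and 9.78, 9.02 and 9.47 on day 6 with RANKL. On day 3 the RANKL cultures were all above M-CSF, by 0.87 ± 0.34, adjusted p = 0.0559, which did not pass, and on day 6 all were below it, by -1.04 ± 0.34, adjusted p = 0.0242. The change between days was -1.91 ± 0.48, adjusted p = 0.015. Within the RANKL cultures Psmb8 was lower on day 6 than on day 3 in 3 of 3 cultures (-0.97 ± 0.23, adjusted p = 0.0282). It was the 1 member called in this comparison, in which 2.07% of all genes were called lower and 1.31% higher, and the call was lost without either array of PSS1-WT or of PSS1-LMS, with the count then at 0. The day 3 difference passed when the day 6 array of M-CSF+RANKL or of PSS1-WT was left out, where Psmb8 was the 1 member called higher. Psmb9 read 7.35 with M-CSF and 7.53, 7.11 and 7.55 in the RANKL cultures on day 3, and 7.37 and 7.07, 7.25 and 6.82 on day 6, and its cultures overlapped on day 3. It passed in no comparison, with an adjusted p of 0.404 on day 6.

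Averaged over all 4 cultures, day 6 minus day 3 was called for 0 members in either direction by limma, with 1 at an unadjusted p under 0.05. Among all genes 0.184% were called lower and 0.101% higher. Without either M-CSF array 1 member, Psmb8, was called lower. The plot of day changes by gene list sets the members beside the other lists of the pathway.

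**Figure D4:**
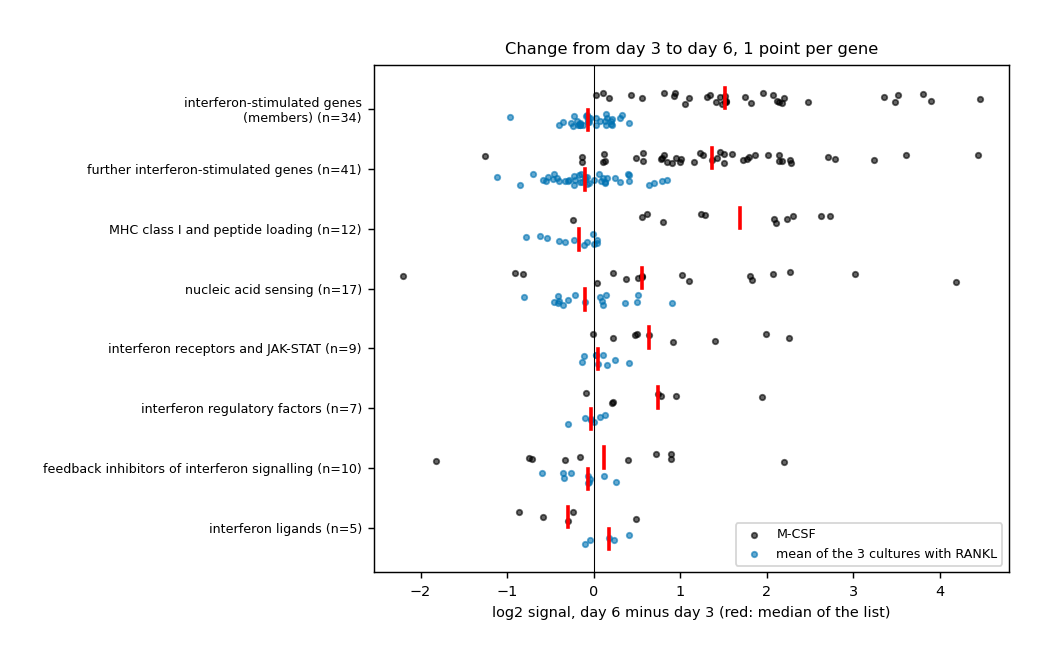
Change in log2 signal from day 3 to day 6 (horizontal axis), 1 point per tested gene, for M-CSF (black) and for the mean of the 3 RANKL cultures (blue); red marks are list medians. The members lie at a median of 1.52 with M-CSF and -0.07 with RANKL, and the lists of further interferon-stimulated and MHC class I genes also lie to the right with M-CSF alone.

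Wild-type or mutant PSS1 changed no member past the threshold. PSS1-WT minus M-CSF+RANKL, averaged over both days, called 0 of 34 members in limma, with 0 at an unadjusted p under 0.05 and a smallest adjusted p of 0.731. Among all genes 0% were called lower and 0.0092% higher. The median was -0.12 and the 95% intervals of single members reached from -1.07 to 1.36, so a change anywhere within these bounds could have gone uncalled. PSS1-LMS minus M-CSF+RANKL called 0 members in limma, with 5 at an unadjusted p under 0.05 and a smallest adjusted p of 0.242. The background was 0.0184% lower and 0.156% higher. The median was 0.06, and intervals reached from -1.20 to 1.80. PSS1-LMS minus PSS1-WT also called 0, with 4 unadjusted and a smallest adjusted p of 0.598, where 0% of all genes were called in either direction. These 3 comparisons share arrays.

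The members farthest from zero were both above background on every array. Sp100 was 0.98 ± 0.25, adjusted p = 0.242 in PSS1-LMS and 0.39 ± 0.25, adjusted p = 0.774 in PSS1-WT relative to M-CSF+RANKL, with 95% intervals from 0.45 to 1.52 and from -0.15 to 0.93. Its PSS1-LMS value was the highest of the RANKL cultures on both days, at 8.97 and 8.89, and both lay far under the M-CSF values of 12.85 and 14.37. Lgals3bp was 1.15 ± 0.39, adjusted p = 0.598 in PSS1-LMS minus PSS1-WT, with a 95% interval from 0.31 to 1.99. It passed with either M-CSF+RANKL array left out, or the PSS1-WT array of day 3, where the count was 1. Against M-CSF+RANKL it passed without that culture's array of day 6, again the 1 member called. The mean signal of the 8 macrophage markers was 7.89 on day 3 and 8.51 on day 6 in PSS1-LMS, 7.53 and 7.87 in PSS1-WT, and 7.66 and 8.17 in M-CSF+RANKL. In limma 0 of the 8 were called in PSS1-LMS minus M-CSF+RANKL, with 3 at an unadjusted p under 0.05 and a median difference of 0.15, and their part in these values was not tested.

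**Figure D5:**
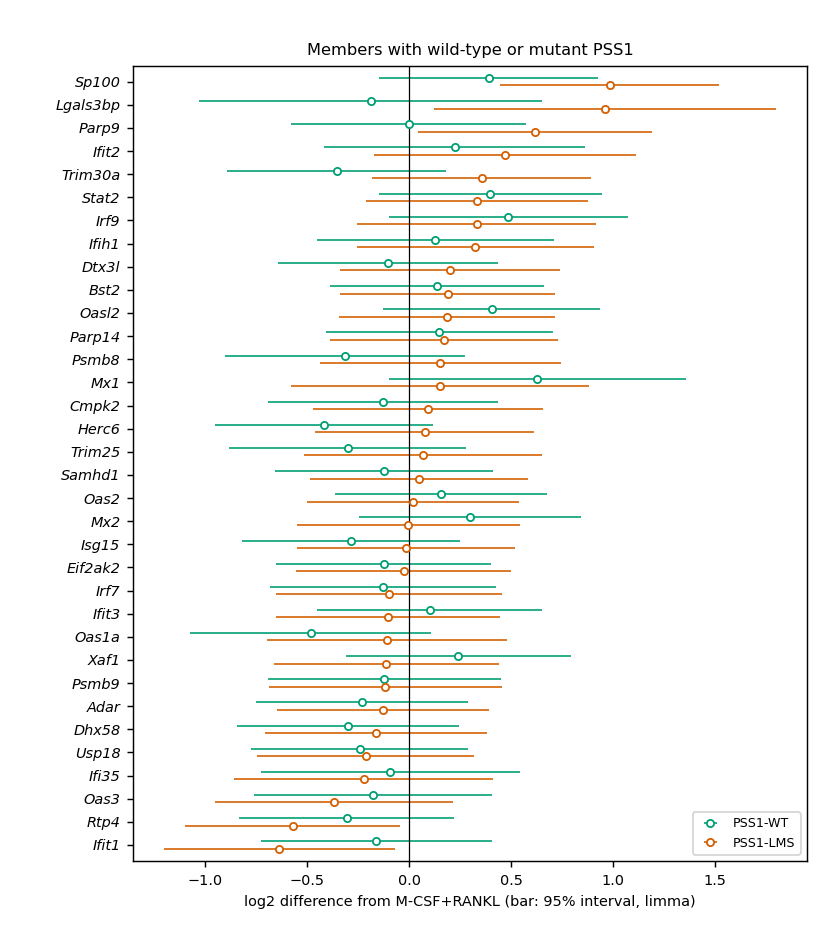
Log2 difference from M-CSF+RANKL, averaged over both days (horizontal axis, bars: 95% interval from limma), for the 34 members tested with PSS1-WT (green) and PSS1-LMS (orange). No point passed the threshold; Sp100 at 0.98 and Lgals3bp at 0.96 with PSS1-LMS lie farthest to the right.

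The chain above the members was read from lists chosen with earlier results of these data known. Of 11 interferon ligand genes, 10 stayed within background on every array. The exception, Ifna5, named after its values were seen, read 6.55 to 7.27 over the 8 arrays, above background on 7, and was called in no comparison. Ifnb1 read 4.38 on day 3 and 3.79 on day 6 with M-CSF, against 3.65, 4.91 and 4.51 on day 3 and 4.05, 4.51 and 4.37 on day 6 with RANKL, with no order by culture. Of 5 ligand genes tested, 1 was called, Ifna1, lower on day 3 and within background. Among all genes 20.2% were called lower on day 3. Signals within background do not show that interferon was absent. Of 9 tested receptor and JAK-STAT genes, 5 were lower with RANKL over both days (Ifngr1, Ifnar2, Ifnar1, Il10rb and Jak2) and 0 higher. Among all genes 12.4% were lower and 14.1% higher. On day 3 alone 6 of the 9 were lower and 1 higher, against 20.2% and 22.3% of all genes. On day 6 the counts were 8 and 0, against 21.6% and 22%. Ifnar1 read 11.56 with M-CSF and 10.66, 10.75 and 10.83 in the RANKL cultures on day 3, and 12.06 and 10.41, 10.70 and 10.79 on day 6, a difference of -1.27 ± 0.31, adjusted p = 0.019 over both days. Ifnar2 read 15.24 on day 3 and 15.47 on day 6 with M-CSF, against 13.92, 13.76 and 13.61 on day 3 and 13.89, 14.41 and 14.20 on day 6 with RANKL, with -1.45 ± 0.31, adjusted p = 0.0109. Both subunits were lower in every RANKL array than in either M-CSF array. Tyk2, the kinase bound to Ifnar1, read 9.62 with M-CSF and 9.79, 9.69 and 9.76 in the RANKL cultures on day 3, and 11.61 and 9.65, 9.37 and 9.79 on day 6 and differed on day 6 alone (-2.002 ± 0.27, adjusted p = 4.76e-05).

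Of 7 tested interferon regulatory factors, 3 were lower over both days, Irf8, Irf2 and Irf5, and 0 higher, against 12.4% and 14.1% of all genes. On day 3 alone 3 were lower and 1 higher, against 20.2% and 22.3% of all genes. On day 6 the counts were 4 and 0, against 21.6% and 22%. Irf8, the factor that commits precursors to the monocyte line and restrains osteoclast formation, read 6.32 on day 3 and 7.27 on day 6 with M-CSF, against 4.23, 4.27 and 4.48 on day 3 and 4.45, 4.35 and 4.57 on day 6 with RANKL, -2.46 ± 0.33, adjusted p = 0.00128 over both days. Irf1, which drives immunoproteasome and MHC genes, read 7.91 with M-CSF and 7.79, 7.40 and 7.71 in the RANKL cultures on day 3, and 9.85 and 7.69, 7.98 and 7.13 on day 6. Its cultures lay close on day 3 and apart on day 6, with a change between days of -1.98 ± 0.47, adjusted p = 0.0113. Fos, the osteoclast factor whose protein interferon-beta is known to lower, ran opposite to the members in its RNA signal, and protein was not measured. It read 7.95 on day 3 and 7.08 on day 6 with M-CSF, against 12.83, 13.10 and 13.20 on day 3 and 13.35, 13.44 and 13.28 on day 6 with RANKL, 5.57 ± 0.39, adjusted p = 4.9e-05 over both days.

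Among 17 tested genes of nucleic acid sensing, 8 were lower over both days and 0 higher, against 12.4% and 14.1% of all genes. On day 3 alone 10 were lower and 2 higher, against 20.2% and 22.3% of all genes. On day 6 the counts were 9 and 0, against 21.6% and 22%. Over both days the endosomal receptors of RNA had the largest differences, where Tlr8 fell by 7.55 and Tlr7 fell by 7.48 on the log2 scale (SE 0.71 and 0.48, adjusted p = 0.000218 and 3.71e-05). Tlr7 read 15.89 and 17.69 with M-CSF and 9.10 to 10.76 with RANKL. Tlr3 fell by 4.83 and Sting1, the adaptor of DNA sensing, fell by 4.13 (adjusted p = 6.21e-05 and 0.000703). Cgas, the DNA sensor before it, went the other way in time and read 9.44 with M-CSF and 6.10, 5.95 and 6.37 in the RANKL cultures on day 3, and 7.24 and 6.31, 6.81 and 6.82 on day 6. Its gap narrowed from day 3 to day 6, 2.71 ± 0.43, adjusted p = 0.0012.

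Of 10 feedback inhibitors tested, 2 were higher with RANKL over both days, Tnfaip3 (4.99 ± 0.32, adjusted p = 3.96e-05) and Nfkbia (4.38 ± 0.48, adjusted p = 0.000452), which limit NF-kappaB signalling, and 1 was lower, Pias3 (-1.53 ± 0.35, adjusted p = 0.0152). These counts over both days are near the shares of all genes, 14.1% higher and 12.4% lower. On day 3 alone 5 were higher and 1 lower, against 22.3% and 20.2% of all genes. On day 6 the counts were 3 higher and 2 lower, against 22% and 21.6%. Socs1 and Socs3 stayed within background. Of 41 further interferon-stimulated genes tested, 20 were lower and 3 higher over both days. On day 3 alone 19 were lower and 9 higher, and on day 6 the counts were 30 and 3. The shares of all genes are those just given. Lgals9 fell by 6.98 and Mndal fell by 5.09 over both days (adjusted p = 6.03e-05 and 4.13e-05). Slfn5, a growth regulator, differed by -1.25 ± 0.34, adjusted p = 0.0101 on day 3 and -5.92 ± 0.34, adjusted p = 2.16e-08 on day 6. Mov10, an RNA helicase, went the other way and read 6.68 on day 3 and 8.83 on day 6 with M-CSF, against 11.44, 11.23 and 11.19 on day 3 and 10.0, 10.11 and 10.43 on day 6 with RANKL, 2.96 ± 0.78, adjusted p = 0.0262. Gbp7, a GTPase of the interferon-gamma response, was higher with RANKL on day 3 and level on day 6, as M-CSF read 6.63 and then 10.23 against 9.74 to 10.66 with RANKL.

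MHC class I and peptide-loading genes differed mostly on day 6. Of 12 tested, 2 were lower and 2 higher on day 3, and 10 were lower and 1 higher on day 6; the gap of 9 changed between days, all in the negative direction. Among all genes 20.2% were lower and 22.3% higher on day 3, so the counts of day 3 do not stand above the background, against 21.6% and 22% on day 6 and 11.3% for a negative change. H2-K1 read 13.76 with M-CSF and 13.88, 13.87 and 14.12 in the RANKL cultures on day 3, and 16.39 and 14.09, 14.08 and 13.80 on day 6. Its cultures were level on day 3, and M-CSF alone was high on day 6 (-2.40 ± 0.27, adjusted p = 9.02e-06). Tap1, a subunit of the peptide transporter, read 6.95 on day 3 and 9.19 on day 6 with M-CSF, against 9.49, 10.01 and 9.47 on day 3 and 8.97, 9.32 and 8.82 on day 6 with RANKL, higher with RANKL on day 3 (2.70 ± 0.31, adjusted p = 1.29e-05) and level on day 6. Tap2, the other subunit, was higher with RANKL on both days, 2.50 ± 0.32, adjusted p = 3.68e-05 and 1.10 ± 0.32, adjusted p = 0.0141. Of 2 constitutive proteasome subunits tested, 1 was called higher with RANKL over both days, Psmb7 (1.84 ± 0.30, adjusted p = 0.00313). Psmb6 was not called, and among all genes 14.1% were called higher.

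Read beside the promoters printed above, the 10 tested members with an ISRE core had a median difference of -3.06 on day 6 and the 16 tested members whose promoter had none -2.47. Of the first, 10 were called lower on day 6, and of the second, 14, where 21.6% of all genes were. Among the first Isg15, Ifit1 and Oas3 passed the filter through M-CSF arrays alone. Among the second Oasl2, Irf7, Ifit2, Cmpk2 and Xaf1 did so. This direction was built into their selection, so nothing is read from these counts. Medians with and without a core were -1.42 and -0.69 on day 3, and -1.75 and -1.73 over both days. For the change between days they were -1.54 and -1.70. These values are a description, and members without the core include Sp100 and Oasl2 and members with it include Isg15 and Eif2ak2. On day 6 Isg15, with 3 cores, differed by -1.69, and Stat2, with a single distant core, by -4.48.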

How the data were processed

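Biotinylated cDNA from 500 ng of total RNA was hybridised to Affymetrix arrays, per the labels. The authors' deposited table holds log2 signals for 28846 features; their probe summary and array normalization are not given in the sources used here, and the scale was judged from the values, which end at a ceiling of 19.93. Values were used as deposited. Of 22206 transcript clusters, 19572 had a single symbol in the platform annotation and 2634 had none, giving 19505 genes, 55 of them with several clusters. Genes whose highest value reached 4.86, the 50th percentile, were tested (10871). Limma 3.58.1 (R 4.3.3, lmFit and eBayes) was fitted with culture and day as additive terms on all 8 arrays (RANKL and day effects, 3 residual degrees of freedom) or on the 6 RANKL arrays (PSS1 effects and day within RANKL, 2), and with 4 means, for M-CSF and RANKL arrays on each day (4). In the additive fits, error is how much the culture differences varied with day. No spread over animals or replicate cultures enters any p-value, and precision is limited by the number of arrays. Where low-side values lay within background, they were raised to it and the fold is given as "at least"; with both sides within it, no fold is given. Each fit was tested on simulated data. The members and lists were chosen with earlier results of these data known. All 8 values are given for members called in any comparison and for transcription factors, ISG15 genes and the immunoproteasome; from other lists, called genes were named if 5 or fewer, otherwise from the 4 with the largest difference, plus Ifnb1, Ifnar1, Ifnar2, Irf1, Irf8, Fos and Ptdss1. Alternatives were array centring, quantile normalization, other filters, a floor at the brightest background, cluster means, an intensity trend, other array sets and each array left out.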

Additional observations from a re-analysis of the deposited data

Results flagged for a closer look

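The genes below were marked because the difference between the RANKL arrays and M-CSF itself differed between days 3 and 6, tested as an interaction in limma over 10871 genes (adjusted p under 0.05). Values are the log2 difference of day 6 minus that of day 3, so a negative value means that the RANKL cultures stood lower against M-CSF on day 6 than on day 3. The day change of the single M-CSF array per day enters each value, and no array of a day is replicated. Among transcription factors the change was -4.09 for Irf7, -1.54 for Stat2 and -1.46 for Irf9. In the OAS family it was -3.48 for Oas2, -3.36 for Oasl2 and -1.54 for Oas1a. Among sensors it was -1.98 for Ifih1 and -1.55 for Dhx58. The antiviral effectors gave -4.25 for Lgals3bp, -3.73 for Rtp4, -3.39 for Ifit3, -2.44 for Samhd1, -2.31 for Xaf1, -2.25 for Ifit1, -1.56 for Mx2, -1.43 for Cmpk2 and -1.31 for Bst2. The ligase and PARP group gave -2.60 for Trim30a, -2.26 for Dtx3l, -2.19 for Parp14 and -1.78 for Trim25. The immunoproteasome gave -1.91 for Psmb8, where the arrays lay above M-CSF on day 3 and below it on day 6. Irf7, Dhx58, Ifit1, Mx2 and Cmpk2 stayed within background on all 8 arrays.

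Outside the members, the same test marked -2.13 for Tyk2 and -2.20 for Ifngr1 among receptors and kinases, -1.98 for Irf1, and -4.60 for Unc93b1, -2.91 for Tlr8, -2.48 for Tlr9 and -1.83 for Sting1 among sensing genes. Cgas was marked in the other direction, at 2.71, as were Nfkbia at 1.76 and Fos at 1.18. Ptpn6, a phosphatase that limits JAK signalling, changed by -2.55. Further interferon-stimulated genes gave -4.67 for Slfn5, -4.16 for Gbp7, -3.31 for Irgm2, -3.26 for Mov10 and -2.18 for Ifi204. MHC class I and loading genes gave -2.85 for Tap1, -2.73 for Tapbp, -2.64 for H2-T23, -2.59 for H2-K1 and -1.40 for Tap2.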

How the results depend on the processing

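Each result was recomputed under alternatives, with 1 choice changed at a time. Of 91 called pairs of member and comparison, none reversed in 1264 recomputed values; 1155 stayed past the threshold and 109 did not, 47 of these with values raised to the brightest background, 50 with an array left out and 12 otherwise. Of 260 recomputed counts and medians, 234 stayed within the limits and 26 moved. With values raised to 7.13, members called lower were 2 for M-CSF+RANKL minus M-CSF over both days, 7 for the RANKL arrays on day 3, 21 on day 6 and 0 for day within the RANKL cultures, because dim values then tie. With an array left out, the first of these counts ran from 4 to 32 (18 with all arrays), PSS1-LMS minus M-CSF+RANKL and PSS1-LMS minus PSS1-WT from 0 to 1 higher, the day effect from 0 to 1 lower, day within the RANKL cultures from 0 to 1 lower and the RANKL arrays on day 3 from 0 to 1 higher. That last count was also 1, Psmb8, with a filter above the brightest background and with an intensity trend in the prior. Day within the RANKL cultures gave 0 with quantile normalization, 0 without a filter and 0 without a culture term; this last setting also drops the block on culture. The day 6 median of the RANKL arrays was -2.51 with the M-CSF+RANKL array alone and -2.75 with all 3. Members within background were 8 with the second-brightest probe set as limit, chosen after seeing the data, and 13 with the brightest. The causes were not tested beyond the ties named. Centring the arrays or quantile normalization moved the median of all genes by under 0.1 in every comparison. No paired analysis was possible because no label carries a replicate number; the additive fits hold culture and day as terms, as a block does.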
